A study of Homo sapiens with 6 samples.

Results

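Receptors for interferons and TNF, with their first signalling partners, were followed as 10 genes of the 61541 listed. They were chosen by name, not by any measured value. They encode the receptor chains for interferon gamma (IFNγ; IFNGR1 and IFNGR2) and for type I interferon (IFNAR1 and IFNAR2), and the Janus kinases that these receptors carry (JAK1, JAK2 and TYK2). The others are the TNF receptors (TNFRSF1A and TNFRSF1B) and the adaptor TRADD. RNA was measured in RCC4, an established line of clear cell renal carcinoma, by nanopore direct RNA sequencing, in which poly(A)+ RNA molecules are read without being copied to DNA. The untreated group held 3 biological replicates, and 3 others had received IFNγ at 1000 U/mL and TNF at 25 ng/mL together for 24 h. No group received 1 cytokine alone, so the effects of IFNγ and of TNF cannot be told apart. Type I interferon was not added. Each replicate combined 3 flasks of a single line, so p-values measure the spread between cultures of that line.

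As background, IFNγ binds IFNGR1, which brings in IFNGR2, and JAK1 and JAK2 on the receptor tails then phosphorylate STAT transcription factors. Type I interferons bind IFNAR2 and IFNAR1, which carry JAK1 and TYK2. TNF binds TNFRSF1A, found on most cells, or TNFRSF1B, best known from immune and endothelial cells. TNFRSF1A has a death domain that recruits TRADD, on which complexes for NF-kappaB signalling or for cell death are built, while TNFRSF1B binds TRAF2 directly.

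The 6 libraries held 3626000 to 4406296 gene-assigned reads, and 14798 to 15604 genes had at least 1 read. Values below are CPM (counts per 1e6 gene-assigned reads), scaled by edgeR's TMM factors. Of 5 epithelial markers 4 had reads, with summed levels of 1709 to 2901 CPM in untreated and 1890 to 3430 CPM in treated libraries, and CDH1 was at 0. Of 7 markers of renal tubule and clear cell carcinoma 6 had reads (4687 to 5255 CPM untreated, 6755 to 8376 CPM treated), and LRP2 was at 0. CUBN had only 3 reads over the 6 libraries, and VIM made up most of this list's total. Within these sums VIM rose (4594 to 7280 CPM, log2 fold change 0.66, adjusted p = 0.0273), while PAX8 fell (144.8 to 83.7 CPM, -0.79, adjusted p = 0.0316), as did the epithelial KRT19 (365 to 173 CPM, -1.08, adjusted p = 0.00995). Of the leukocyte markers, CD14 had 1, 0 and 1 reads in the treated and 0 in the untreated libraries. The leukocyte markers PTPRC, CD3E, LYZ and CD68 (81.6% of whose exonic bases are shared with another gene on the same strand) and the endothelial markers PECAM1, CDH5 and VWF were at 0 in all 6 libraries. The 2 detected fibroblast markers of 4 summed to 54.5 to 74.1 CPM in untreated and 27.3 to 48.9 CPM in treated libraries, with COL1A2 and DCN at 0. PDGFRB among them fell (10.3 to 2.71 CPM, -1.91, adjusted p = 0.00491). The part of these markers in the results was not tested. Untreated 3 stood apart. With the tested genes in 5 bins by the GC content of their transcripts, its median log2 level against the mean of untreated 1 and 2 went from 0.79 in the lowest bin to -0.37 in the highest. Treated 1 leaned the other way against treated 2 and 3, from -0.62 to 0.33. Several results of the members are given with and without untreated 3 or treated 1. Of the list genes, calls that were lost without 1 library are named.

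**Figure D1:**
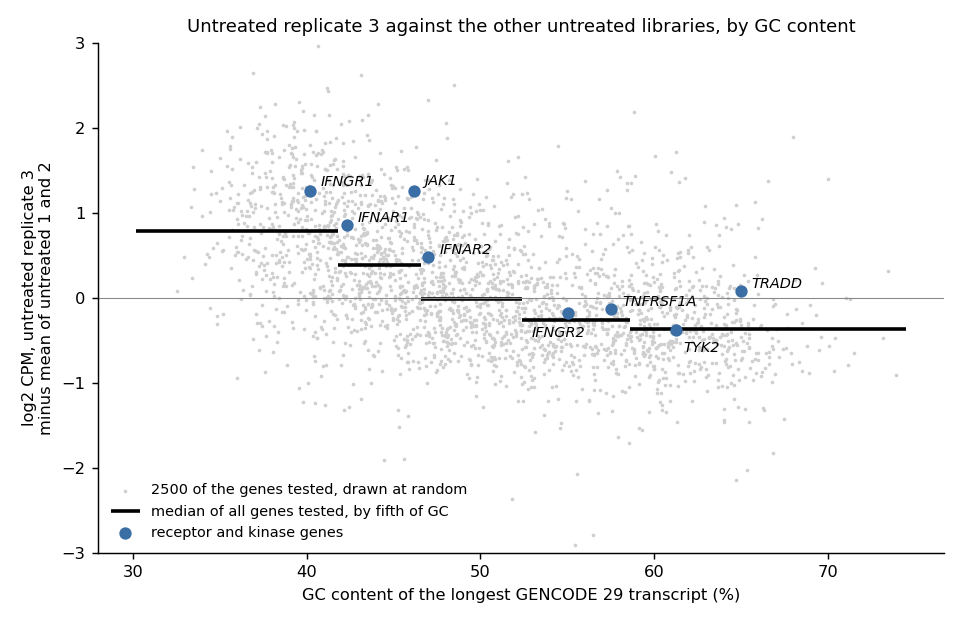
Log2 ratio of untreated 3 to the mean of untreated 1 and 2 (vertical axis) against the GC content of each gene's longest transcript in percent (horizontal axis), with grey points for 2500 tested genes, lines at the medians of 5 GC bins and labelled points for the 8 tested members. IFNGR1 and JAK1 lie 1.26 above 0, IFNAR1 lies at 0.85, and TNFRSF1A, IFNGR2 and TYK2 lie below 0.

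The filter on low counts left 8 of the 10 genes for the edgeR quasi-likelihood test, and JAK2 and TNFRSF1B were not tested. TNFRSF1A and IFNAR2 rose with treatment, none of the 8 fell, and the other 6 missed the threshold (Benjamini-Hochberg adjusted p of 0.05 over all 10067 genes tested). Over the 10067 genes, 8.14% passed by the same rule: 5.58% rose and 2.55% fell. IFNAR2 passed the filter only through its treated libraries, so the count of 2 in 8 carries no weight as a share. The same 2 genes rose without untreated 3. In bulk RNA, a change in RNA per cell and a change in the share of cells with that RNA cannot be told apart.

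**Figure D2:**
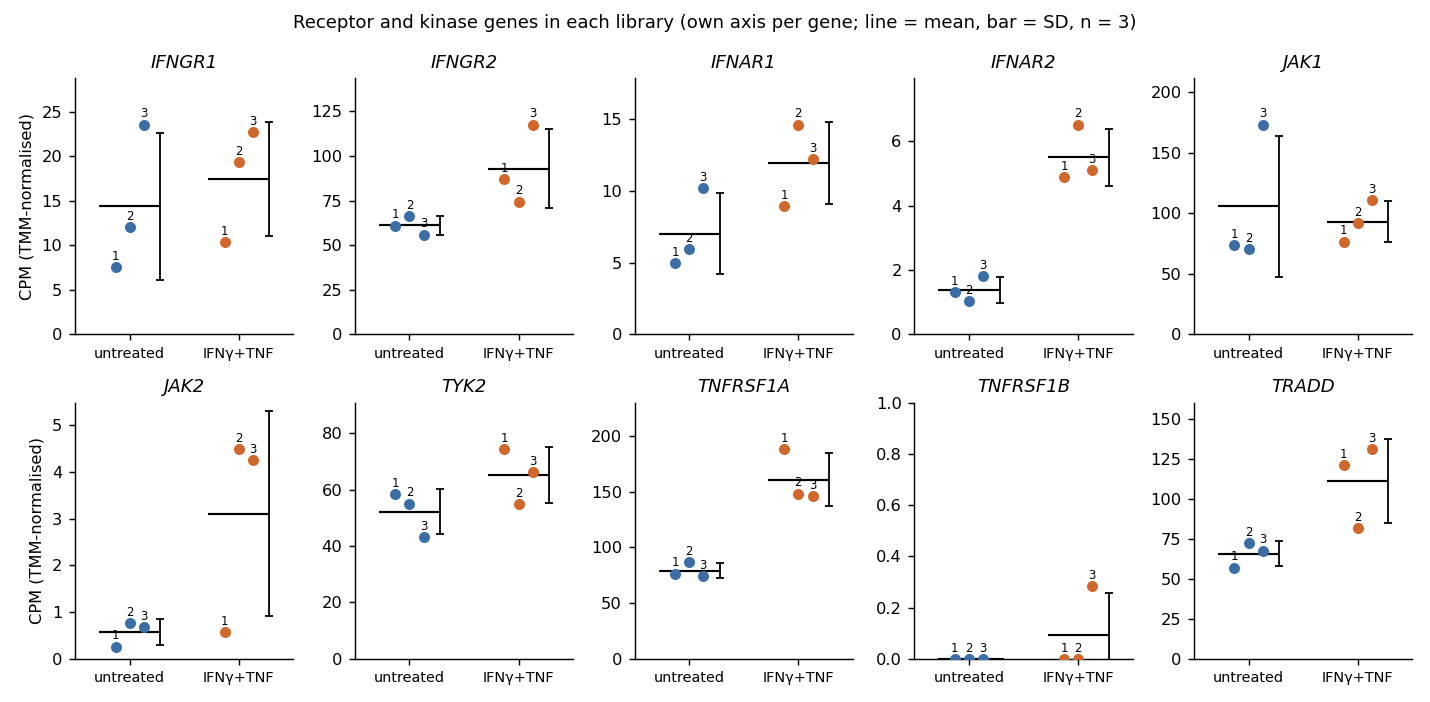
CPM of each of the 10 genes in each library (1 numbered point per library, untreated and treated side by side, horizontal line at the group mean, error bar of 1 SD, n = 3, each panel with its own axis from 0). The treated points of IFNGR2, IFNAR2, TNFRSF1A and TRADD all lie above the untreated ones, and in the other panels the groups overlap.

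TNFRSF1A (ENSG00000067182, chromosome 12, 6328757 to 6342114, minus strand, GRCh38), the main TNF receptor of non-immune cells, read 76.3, 86.4 and 73.9 CPM in the untreated libraries. In the treated libraries it read 188.2, 148.3 and 145.6 CPM. The groups did not overlap, and every treated library was above every untreated one. TNFRSF1A thus rose 2.04-fold, with group means of 78.9 ± 6.66 and 160.7 ± 23.9 CPM (SD, n = 3 each). Its log2 fold change was 1.03 (SE 0.18, adjusted p = 0.00798). It stayed past the threshold in all 17 alternative settings, with log2 fold changes from 0.89 to 1.13 and adjusted p from 7.79e-05 to 0.0396. Without untreated 3 its log2 fold change was 0.97. Among the 562 genes that rose, the median log2 fold change was 1.83, and 87.7% of them rose at least as much as TNFRSF1A.

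TNFRSF1B (ENSG00000028137, chromosome 1, 12166991 to 12209228, plus strand), the second TNF receptor, had 0 reads in each untreated library and in treated 1 and 2, and 1 read in treated 3. A floor of 3 reads per library was 0.681 to 0.827 CPM of the library totals, before TMM scaling. A level up to that floor could have given 0 reads in a library. Reads of the TNF receptors therefore came from TNFRSF1A, and the TNFRSF1B share of both was 0% in 5 libraries and 0.195% of 514 reads in treated 3 (exact permutation p = 1, Benjamini-Hochberg adjusted 1 over 4 shares). The test of such shares, 3 libraries against 3, cannot go below 0.1.

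The sequences just before the start of both TNF receptor genes are shown because TNFRSF1A rose and TNFRSF1B was at or near 0 reads in every library. The sequences are RefSeq promoter windows on GRCh38.p14, in which 8 of the 10 genes had an entry (15 windows, no entry for IFNAR2 and TRADD). The motifs, searched on both strands of windows of 250 bases before and 50 after a start, were TTCNNNGAA (GAS), TTTCNNTTTC (ISRE) and GGGNNTTTCC (NF-kappaB). Of 35116 windows of all genes, 7.66%, 3.57% and 1.91% held them. The stretches are chr12:6342115-6342326 (minus strand) and chr1:12166741-12166990 (plus strand), written 5′ to 3′ with the motif match in capitals. The TNFRSF1B stretch runs up to the RefSeq start. For TNFRSF1A 212 of the 250 bases before the RefSeq start are printed, since the rest, searched too, lie within the Ensembl gene.
TNFRSF1A: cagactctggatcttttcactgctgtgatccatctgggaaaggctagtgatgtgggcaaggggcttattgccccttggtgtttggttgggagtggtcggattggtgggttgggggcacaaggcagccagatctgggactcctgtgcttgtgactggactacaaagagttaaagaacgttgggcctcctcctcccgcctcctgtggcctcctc
TNFRSF1B: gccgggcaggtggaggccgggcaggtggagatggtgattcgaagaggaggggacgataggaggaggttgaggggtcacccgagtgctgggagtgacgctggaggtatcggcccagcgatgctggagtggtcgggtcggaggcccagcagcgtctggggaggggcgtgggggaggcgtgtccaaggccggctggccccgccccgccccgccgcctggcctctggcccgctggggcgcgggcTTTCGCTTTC
The TNFRSF1B window held 1 ISRE match, at positions -10 to -1 before the start, and the TNFRSF1A window held none of the 3 motifs. A match is a string of letters and says nothing of whether a factor binds it.

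TRADD (ENSG00000102871, chromosome 16, 67154185 to 67159909, minus strand), the adaptor of TNFRSF1A, read 57.1, 72.6 and 67.8 CPM untreated. Its treated libraries read 121.3, 81.8 and 131.4 CPM. All treated values were above all untreated ones, with treated 2 the lowest. Means were 65.8 ± 7.93 and 111.5 ± 26.2 CPM (SD, n = 3 each), with a log2 difference of 0.76 (SE 0.22, 95% interval 0.33 to 1.19) and an adjusted p of 0.0741, which missed the threshold. It passed with every gene of at least 1 read tested (0.0184), with DESeq2 (0.0347), with 1 surrogate variable (0.0204), and without treated 2 (log2 0.99, adjusted p = 0.0354). Without treated 3 the adjusted p was 0.282.

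IFNAR2 (ENSG00000159110, chromosome 21, 33205282 to 33265675, plus strand), the chain of the type I interferon receptor that binds the ligand most tightly, had 5, 4 and 8 reads in the untreated libraries. The treated libraries had 17, 29 and 18 reads. These were 1.30, 1.03 and 1.81 CPM against 4.89, 6.51 and 5.11 CPM, groups that did not overlap. IFNAR2 thus rose 3.90-fold, with group means of 1.38 ± 0.398 and 5.50 ± 0.883 CPM (SD, n = 3 each). Its log2 fold change was 1.96 (SE 0.40, adjusted p = 0.016). The call rests on few reads. IFNAR2 also entered the filtered test only through its treated libraries, so the filtered call carries no weight by itself. With every gene of at least 1 read tested, its log2 fold change was 1.99 (SE 0.535, adjusted p = 0.00425), a rule by which 4.43% of 19158 genes rose. The ratio of the pooled reads, 64 against 17, scaled to library size was 3.72 with a 95% interval of 2.15 to 6.77 for counting error only. The adjusted p of the filtered test missed the threshold without untreated 2 (0.0952), without treated 2 (0.0642) and without treated 3 (0.0611). The log2 fold change then stayed between 1.80 and 2.02. Among the 562 genes that rose, 47.3% rose at least as much as IFNAR2.

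Some reads of IFNAR2 would not have been counted under the authors' settings. Of its exonic bases, 41.45% (2038) also belong to IFNAR2-IL10RB, a read-through gene on the same strand with 0 reads in all 6 libraries, and reads that touch exons of both genes were assigned to neither. None of the last 500 exonic bases is shared. In GENCODE 29 the longest IFNAR2 transcript reaches its first shared exon 2038 bases from the 3′ end, 2 shorter coding transcripts reach it after 888 bases and 1 after 196, and 3 short coding transcripts end in a shared exon. Only reads that stop before a shared exon were counted, so the count depends on which transcripts are present, and a change in level and a change of transcript cannot be told apart. Both groups were counted in this way.

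IFNAR1 (ENSG00000142166, chromosome 21, 33324429 to 33359864, plus strand), the partner chain that carries TYK2, read 4.95, 5.92 and 10.2 CPM untreated. It read 8.91, 14.6 and 12.2 CPM with the cytokines. The groups overlapped, since untreated 3 was above treated 1. Means were 7.02 ± 2.79 and 11.9 ± 2.86 CPM (SD, n = 3 each), with a log2 difference of 0.76 (SE 0.36, adjusted p = 0.288). Without untreated 3 the log2 difference was 1.12 (adjusted p = 0.0544), and without treated 1 it was 0.93 (adjusted p = 0.25). With offsets for GC content and length it was 0.76 with an adjusted p of 0.0496. With these offsets and every gene of at least 1 read tested, it was 0.76 with an adjusted p of 0.1. Within the reads of both IFNAR chains, IFNAR2 made up 20.8%, 14.8% and 15.1% in untreated and 35.4%, 30.9% and 29.5% in treated libraries. The groups did not overlap, and the mean share was 15.0 percentage points higher with treatment (16.9 ± 3.40% against 31.9 ± 3.10%, SD, n = 3 each, exact permutation p = 0.1, Benjamini-Hochberg adjusted 0.4). Since reads over the shared exons of IFNAR2 were left out and IFNAR1 shares none, these shares are not the proportions of both chains.

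IFNGR1 (ENSG00000027697, chromosome 6, 137197485 to 137219449, minus strand), the chain that binds IFNγ, read 7.56, 12.1 and 23.6 CPM untreated. Its treated values were 10.3, 19.3 and 22.7 CPM. The groups overlapped across nearly their whole range, with untreated 3 the highest library of all. Means were 14.4 ± 8.25 and 17.5 ± 6.39 CPM (SD, n = 3 each), with a log2 difference of 0.27 (SE 0.44, 95% interval -0.58 to 1.13, adjusted p = 0.838). That difference was 0.83 without untreated 3 (adjusted p = 0.179) and -0.005 without untreated 1 (adjusted p = 0.997), so its direction depends on which untreated libraries are kept.

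IFNGR2 (ENSG00000159128, chromosome 21, 33403413 to 33479348, plus strand), the chain that completes the IFNγ receptor and brings JAK2, read 61.0, 66.1 and 56.0 CPM untreated. It read 86.8, 74.4 and 117.5 CPM in treated libraries. All treated values were above all untreated ones, with treated 3 the highest. Means were 61.0 ± 5.07 and 92.9 ± 22.2 CPM (SD, n = 3 each), with a log2 difference of 0.61 (SE 0.21, 95% interval 0.19 to 1.02) that missed the threshold (adjusted p = 0.142). It passed in 1 of 17 alternatives, with a surrogate variable in the model (0.0465). Without untreated 3 its log2 difference was 0.54. The IFNGR2 share of IFNGR reads was 89.0%, 84.5% and 70.4% in untreated and 89.3%, 79.4% and 83.8% in treated libraries, groups that overlapped (exact permutation p = 0.8, Benjamini-Hochberg adjusted 1). Without untreated 3 the difference in mean share changed sign, from 2.88 to -2.58 percentage points.

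The IFNGR2 window is shown because it was the only window of the receptor and kinase genes with an NF-kappaB match, and it is written in the same way from chr21:33403163-33403412 (plus strand).
IFNGR2: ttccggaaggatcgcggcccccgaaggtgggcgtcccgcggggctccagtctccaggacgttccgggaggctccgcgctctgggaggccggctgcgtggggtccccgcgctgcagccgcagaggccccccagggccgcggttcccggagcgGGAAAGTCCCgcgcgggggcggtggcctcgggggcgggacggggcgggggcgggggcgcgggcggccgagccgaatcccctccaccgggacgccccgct
The match, in capitals, reads GGAAAGTCCC on this strand, the reverse complement of the motif, at positions -99 to -90. The JAK1, JAK2, TYK2, IFNGR1 and IFNAR1 windows held none of the 3 motifs, which says only that these letters are not in these windows.

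JAK2 (ENSG00000096968, chromosome 9, 4984390 to 5129948, plus strand), the kinase on IFNGR2, had 1, 3 and 3 reads in untreated and 2, 20 and 15 reads in treated libraries. In CPM these were 0.261, 0.772 and 0.680 against 0.575, 4.49 and 4.26. Treated 2 and 3 held 94.6% of the treated reads, and treated 1 lay within the untreated range, so the groups overlapped. The filter on low counts removed the gene, and the pooled reads, 37 against 7, gave a ratio of 5.22 scaled to library size (95% interval 2.3 to 13.9, counting error only). With every gene of at least 1 read tested, JAK2 was higher with a log2 fold change of 2.42 (SE 0.68, adjusted p = 0.00725), a rule by which 4.43% of 19158 genes rose. Without untreated 1, 2 or 3 the gene entered the filtered test and missed the threshold (adjusted p = 0.206, 0.248 and 0.101). Without treated 1 it passed (log2 2.87, adjusted p = 0.0258), and without treated 2 or treated 3 it was again not tested. Where JAK2 entered the filtered test, it did so only through treated 2 and 3, where it read highest. The call without treated 1 therefore carries no weight. The longest JAK2 transcript has a GC content of 39.2%, in the lowest bin, where the median of treated 1 against treated 2 and 3 was -0.62 on the log2 scale. JAK2 itself was at -2.17 there, and with offsets for GC content and length and every gene tested its log2 fold change was 2.36 (adjusted p = 0.00492).

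JAK1 (ENSG00000162434, chromosome 1, 64833229 to 65067754, minus strand), the kinase shared by both interferon receptors, read 73.7, 70.8 and 173.4 CPM untreated. It read 76.7, 91.9 and 111.0 CPM with treatment. Untreated 3 was the highest library of all and the other 5 lay close together. Means were 106 ± 58.4 and 93.2 ± 17.2 CPM (SD, n = 3 each), with a log2 difference of -0.19 (SE 0.35, 95% interval -0.86 to 0.49, adjusted p = 0.862). Without untreated 3 the sign turned, to 0.36 (adjusted p = 0.309). TYK2 (ENSG00000105397, chromosome 19, 10350529 to 10380572, minus strand), the kinase on IFNAR1, read 58.4, 55.1 and 43.3 CPM untreated. It read 74.4, 54.8 and 66.1 CPM with treatment, and the groups overlapped through treated 2. Its log2 difference was 0.32 (SE 0.20, 95% interval -0.08 to 0.72, adjusted p = 0.475), from means of 52.2 ± 7.93 and 65.1 ± 9.85 CPM (SD, n = 3 each). JAK2 made up 0.197%, 0.610% and 0.313% of the reads of the 3 kinases in untreated and 0.379%, 2.97% and 2.35% in treated libraries (exact permutation p = 0.2, Benjamini-Hochberg adjusted 0.4).

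**Figure D3:**
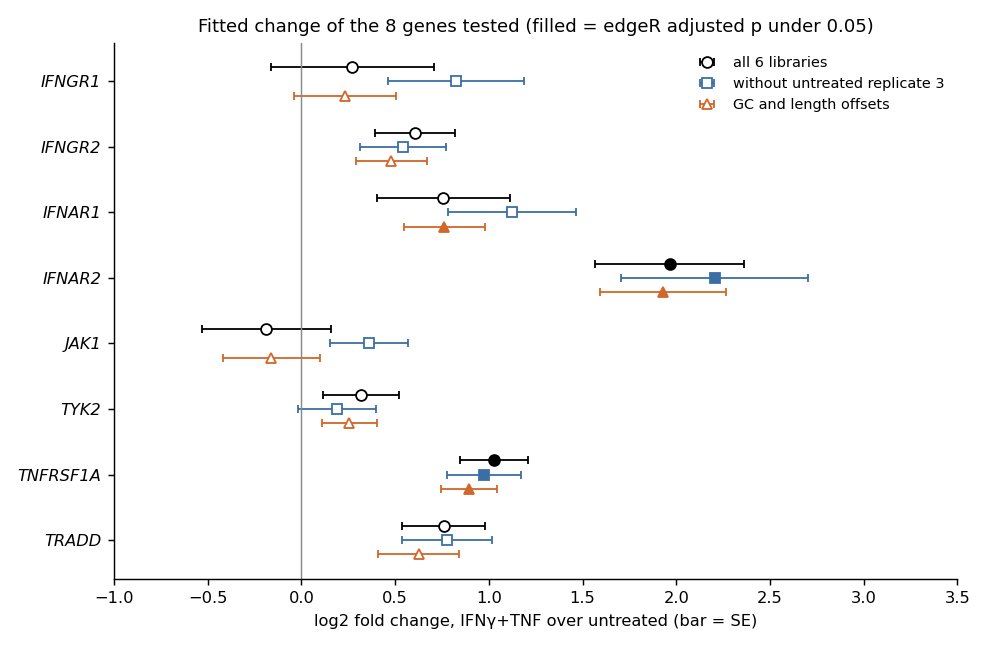
Log2 fold change (treated over untreated, horizontal axis, bars of 1 SE) of the 8 tested genes from all 6 libraries, without untreated 3, and with offsets for GC content and length, filled where the adjusted p is under 0.05. TNFRSF1A and IFNAR2 are filled in all 3 fits, and JAK1 lies at -0.19 with all libraries and at 0.36 without untreated 3.

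Groups that did not overlap, with all treated libraries higher, were seen for IFNGR2, IFNAR2, TNFRSF1A and TRADD, 4 of the 8 tested genes. Over all genes tested, 13.9% had such a pattern, and IFNAR2 owes its place in the test to its treated libraries. Both members of greatest GC content, TRADD (65.0%) and TYK2 (61.3%), read within 0.39 of the other untreated libraries in untreated 3 on the log2 scale. IFNGR1 (40.2%) and JAK1 (46.2%) were each 1.26 higher there, IFNAR1 (42.3%) was 0.85 higher and IFNAR2 (47.0%) 0.48 higher. IFNGR2 (55.0%) and TNFRSF1A (57.5%) stood at -0.18 and -0.14. JAK1 falls in the GC bin from 41.8% to 46.6%, where the median over tested genes was 0.38. The part of GC content in these differences was not tested. With offsets for GC content and length, the log2 fold changes of the 8 genes ranged from -0.16 for JAK1 to 1.93 for IFNAR2. IFNAR1, IFNAR2 and TNFRSF1A were then past the threshold, where 6.95% of 10022 genes rose.

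Divided by exonic length, the levels in untreated cells were highest for TRADD (30.3 CPM per kb), IFNGR2 (25.0) and TNFRSF1A (19.7). The ranges of TRADD and IFNGR2 overlapped, and that of TNFRSF1A lay below both on this scale. JAK1 (8.40 CPM per kb), TYK2 (7.83) and IFNGR1 (4.40) followed, and TYK2 overlapped both of the others. IFNAR1 (1.02), IFNAR2 (0.281), JAK2 (0.0722) and TNFRSF1B (0) came last, with separate ranges. The value of IFNAR2 leaves out reads over its shared exons, so its place against IFNAR1 is not settled by these levels. In treated cells the order of the first genes was TRADD (51.3 CPM per kb), TNFRSF1A (40.1) and IFNGR2 (38.0), and neighbours in that order overlapped. TYK2 (9.77), JAK1 (7.39) and IFNGR1 (5.33) lay apart from the genes before and after them, and JAK1 overlapped both of the others. IFNAR1 (1.73) and IFNAR2 (1.12) overlapped each other. The JAK2 mean per kb was 0.393 in treated cells, and its range reached down to that of TNFRSF1B (0.0250). The order rests on the division by the summed exonic length of all transcripts. Direct RNA reads run from the poly(A) tail, about 1 per molecule. Before division JAK1, with 12620 exonic bases, had the highest untreated mean (106 CPM), while TNFRSF1A had the highest treated mean (160.7 CPM). Undivided, TNFRSF1A lay above TRADD and IFNGR2 in untreated libraries (73.9 to 86.4 CPM, against 57.1 to 72.6 and 56.0 to 66.1). It did so in treated libraries too (145.6 to 188.2 CPM, against 81.8 to 131.4 and 74.4 to 117.5). The place of TNFRSF1A against these genes thus depends on the division. The untreated place of JAK1 rests on untreated 3 (173.4 CPM). In untreated 1 and 2 it read 73.7 and 70.8 CPM, below TNFRSF1A at 76.3 and 86.4 CPM. These are levels of RNA and not of receptor at the cell surface.

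The genes most like a called member in their level over the 6 libraries were taken by Pearson's r of log2 CPM, among tested genes whose mean reached 10 CPM. For TNFRSF1A these were ITPKC (r = 0.998), NNMT (r = 0.995) and ZC3H12A (r = 0.991) of 6743 genes. ITPKC is an inositol trisphosphate kinase, NNMT methylates nicotinamide, and ZC3H12A is the ribonuclease Regnase. Their own log2 fold changes were 1.34, 1.64 and 2.43. For IFNAR2 they were the unnamed ENSG00000279392 (r = 0.994, log2 fold change 0.88), SAMHD1 (r = 0.991, 3.87), which degrades nucleotides, and CD47 (r = 0.991, 2.78), the signal that limits uptake by macrophages, of 6744 genes. The 6 points form 2 groups and the libraries share depth and GC differences, so these values describe a pattern only.

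Around these receptors stand 6 lists of other genes of the pathways. Some genes near the count filter entered the test through their treated libraries only. Of the called genes these were TNFRSF14, USP18, SOCS1, BIRC3 and TNFRSF9, whose untreated libraries alone did not pass the filter. The counts of called list genes therefore carry no weight as shares. Among 22 other receptors that signal through JAKs, with JAK3, 9 were tested, 3 rose and none fell (median log2 fold change 0.37, against -0.03 over all genes tested, of which 5.58% rose and 2.55% fell). IL15RA rose from 7.55 ± 1.10 to 82.2 ± 18.6 CPM (log2 fold change 3.44, adjusted p = 4.39e-05) and presents IL-15 to lymphocytes. IL7R rose from 6.70 ± 2.21 to 37.6 ± 13.2 CPM (2.48, adjusted p = 0.00323), and IL4R from 18.1 ± 1.78 to 56.0 ± 13.8 CPM (1.63, adjusted p = 0.003). JAK3, the kinase that pairs with the receptors' common gamma chain, had 0, 0 and 1 reads untreated and 1 read in each treated library. IL13RA2, IL2RG and IL11RA had 0 reads in all 6 libraries, and 50.83% of the exonic bases of IL2RG and 32.45% of those of IL11RA are shared with another gene on the same strand.

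Of 17 regulators of JAK-STAT signalling, all were tested, 4 rose and 1 fell (median 0.15), beside 5.58% and 2.55% of all genes tested. The inhibitors SOCS1 (4.23 ± 2.09 to 149 ± 25.0 CPM, log2 fold change 5.15) and SOCS3 (9.11 ± 2.69 to 135 ± 28.6 CPM, 3.89) rose. So did USP18, which binds IFNAR2 and damps its signal (1.92 ± 0.507 to 84.5 ± 39.8 CPM, 5.45), and CISH (5.14 ± 1.13 to 12.1 ± 1.50 CPM, 1.23, adjusted p = 0.037). SOCS2, best known as a brake on growth hormone signalling, fell from 28.5 ± 3.52 to 9.53 ± 2.06 CPM (log2 fold change -1.57, adjusted p = 0.00487). Among the transcription factor genes IRF1 rose from 33.8 ± 5.90 to 1325 ± 155 CPM (5.29, adjusted p = 3.35e-06). STAT2 (log2 fold change 2.60), STAT3 (1.17) and STAT6 (0.98) rose too. IRF9, with 42.24% of its exonic bases shared on the same strand, had 0 reads. CISH missed the threshold on leaving out any 1 library other than untreated 3, with adjusted p up to 0.149, and with library totals (0.0723), and STAT6 on leaving out untreated 2 (0.0664).

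In the complex that forms on TNFRSF1A and TRADD, 24 of 27 genes were tested, 8 rose and none fell (median 0.65), beside 5.58% and 2.55% of all genes tested. Without single libraries fewer rose: 5 without untreated 1 or treated 2, and 4 without untreated 2 or treated 3. The inhibitors TNFAIP3 (9.41 ± 2.45 to 155 ± 45.3 CPM, log2 fold change 4.04, adjusted p = 4.39e-05) and TNIP1 (243 ± 36.4 to 630 ± 113 CPM, 1.37, adjusted p = 0.00302) rose. BIRC3, a ubiquitin ligase of the complex, rose by a log2 fold change of 2.90 (adjusted p = 0.0215), from 1.98 ± 1.03 to 14.9 ± 11.1 CPM. Genes of the death arm that rose were CASP8 (log2 fold change 1.37), its inhibitor CFLAR (1.12) and the kinase RIPK1 (1.10). The deubiquitinase CYLD (1.15) and RBCK1 (0.95), a subunit of the linear ubiquitin ligase, rose as well. CASP8 missed the threshold without untreated 2 (0.0501), and BIRC3 without treated 2 (0.0708) or treated 3 (0.0555). On leaving out single libraries, RIPK1 missed it in all cases but untreated 3 (up to 0.171), RBCK1 in all but untreated 3 and treated 2 (up to 0.114), and CYLD in all but untreated 3 and treated 1 (up to 0.0951). RIPK1 missed it with library totals (0.104), BIRC3 with limma voom (0.0643) and RBCK1 with offsets for GC content and length (0.0592).

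Of 23 other TNF receptor family genes 13 were tested, 3 rose and 1 fell (median 0.47, also with TNFRSF14 at its lower bound), beside 5.58% and 2.55% of all genes tested. Over the alternatives 2 to 5 rose and 0 to 2 fell. Without untreated 3 the numbers were 5 and 0. TNFRSF14, the receptor of LIGHT and BTLA, had 0 reads in each untreated library and 55, 50 and 70 in the treated ones. At 15.6 ± 4.32 CPM it was at least 21-fold higher, against a floor of 3 reads per library. CD40, the receptor that T cells engage, rose from 79.6 ± 8.01 to 307 ± 43.5 CPM (log2 fold change 1.95, adjusted p = 0.000248), and TNFRSF9 from 2.73 ± 1.04 to 9.31 ± 3.10 CPM (1.76, adjusted p = 0.0327). TNFRSF19 fell from 17.6 ± 3.46 to 6.98 ± 2.93 CPM (-1.32, adjusted p = 0.0479). TNFRSF9 missed the threshold on leaving out any 1 library but untreated 3 and treated 3 (up to 0.115), and TNFRSF19 any but treated 2 (up to 0.179) and with library totals (0.0614). TNFRSF10C, TNFRSF18, TNFRSF6B, CD27 and EDAR had 0 reads, and all exonic bases of TNFRSF6B are shared with another gene. Of 14 ligand and shedding genes 4 were tested and 1 rose (median 0.38), beside 5.58% of all genes tested. This was RHBDF2, a partner of the protease ADAM17 that releases TNF and its receptors from the cell surface, from 35.6 ± 4.94 to 120 ± 37.0 CPM (1.75, adjusted p = 0.00309). The IFNG, IFNB1, IFNE and TIMP3 genes had 0 reads, and TNF had 0, 2 and 0 reads untreated and 4, 0 and 4 treated.

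**Figure D4:**
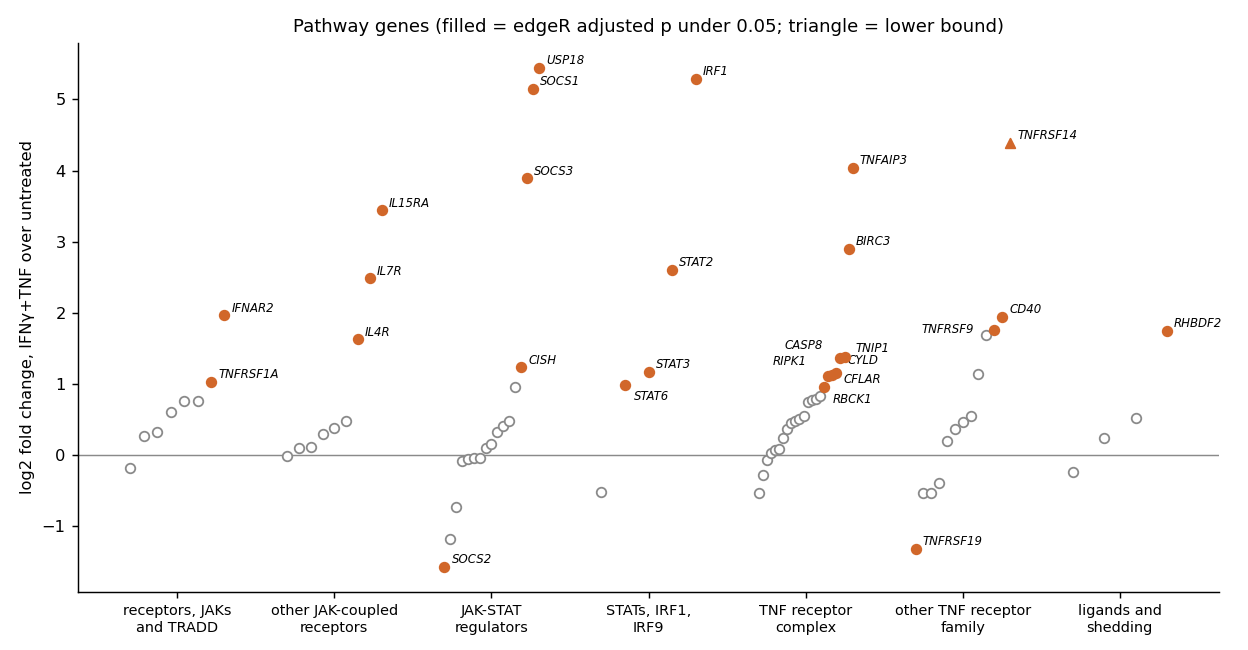
Log2 fold change (vertical axis, treated over untreated) of tested genes of the 6 pathway lists and of the receptor and kinase genes (columns), 1 point per gene in order of value, filled and named where the adjusted p is under 0.05, with a triangle for the lower bound of TNFRSF14. Of the named points SOCS2 and TNFRSF19 lie below 0 and the others above.

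IFNAR2, IFNAR1 and IFNGR2 are neighbours on chromosome 21, with IL10RB between the IFNAR genes. IL10RB, the second chain of the IL-10 and lambda interferon receptors, had 5, 6 and 0 reads untreated and 4, 1 and 1 treated, and 38.27% of its exonic bases are shared with the same read-through gene. IFNAR2 passed the threshold, and IFNAR1 and IFNGR2 missed it. The other tested neighbours missed it too: TMEM50B differed by a log2 value of 0.21 (adjusted p = 0.728), GART by 0.14 (0.78) and SON by 0.39 (0.497). DNAJC28 had 0 reads, and PAXBP1 was too low to be tested. On chromosome 9, JAK2 lies upstream of CD274 and PDCD1LG2, which encode the ligands of the checkpoint receptor PD-1. CD274 rose from 15.2 ± 4.60 to 70.5 ± 13.1 CPM (log2 fold change 2.22, adjusted p = 0.00118) and PDCD1LG2 from 3.87 ± 0.235 to 38.2 ± 10.1 CPM (3.29, adjusted p = 0.00013). PLGRKT, which lies between JAK2 and CD274, rose by 0.83 (adjusted p = 0.0402) and missed the threshold on leaving out any 1 library other than untreated 3, with adjusted p up to 0.135, and with offsets for GC content and length (0.143). AK3 (-0.53, adjusted p = 0.66) and RCL1 (0.20, adjusted p = 0.712), on the other side of JAK2, did not pass. INSL6, INSL4 and RLN1 had 0 reads, and RLN2 was too low to be tested.

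**Figure D5:**
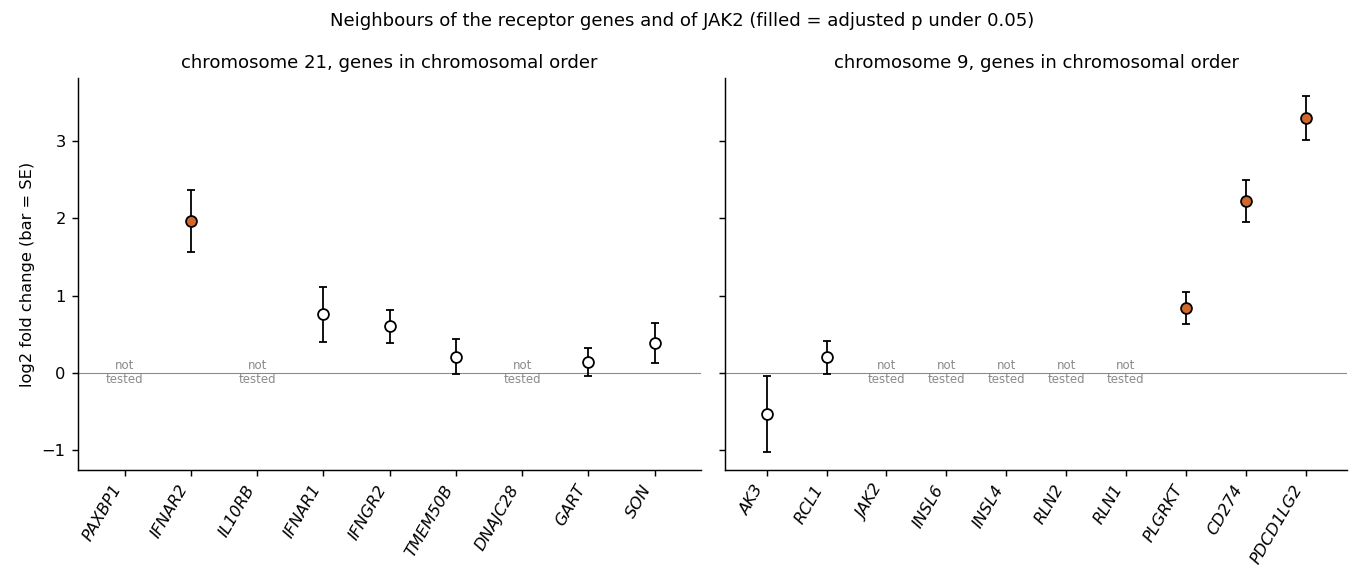
Log2 fold change (treated over untreated, vertical axis, bars of 1 SE, filled where the adjusted p is under 0.05) of the tested genes in their order along chromosome 21 (around IFNAR2, IFNAR1 and IFNGR2) and chromosome 9 (around JAK2), untested genes marked as such. CD274 and PDCD1LG2 stand highest on chromosome 9, and IFNAR2 on chromosome 21.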

How the data were processed

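Read counts per gene were analysed as the authors deposited them. Per the file headers they were made with featureCounts 2.0.1 in long-read mode, strand-specific, from exons of Ensembl 105 (GRCh38), with reads that match several genes left out. The submitters' processing notes name minimap2 2.24, SAMtools 1.16, featureCounts 2.0.0 and hg38. The names of the alignments in the headers of the untreated files carry "dmso", while the labels say untreated. Symbols came from a gene names table (61369 of 61541 genes) and GENCODE 29 (159).

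Genes were filtered with filterByExpr, scaled by TMM and tested with edgeR 4.0.16 (R 4.3.3) by the quasi-likelihood test on group alone, with Benjamini-Hochberg adjustment at 0.05. SEs were derived from the F statistic, and intervals are 1.96 SE to each side. Library totals of 3626000 to 4406296 counts set the precision, and reads are not corrected for repeats, so counting intervals and the floor of 3 counts cover counting error only. Shares were compared by 2-sided exact permutation tests.

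Alternatives were DESeq2 1.42.0 and its size factors, library totals, limma 3.58.1 voom, looser and stricter count filters, the replicate number as a block, each library left out, and genes without shared exons. A surrogate variable (sva 3.50.0) and offsets for GC content and length (loess span 0.5) were chosen after seeing the data.

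Named were all 10 members, list genes past the threshold or at 0 throughout, the 3 genes most correlated with each called member, genes sharing exons and fixed neighbours. Other genes named with values (JAK3, TNF and single markers) were chosen after their values were seen. Members, lists and markers were chosen with earlier results of these data known. Some genes of the lists and markers are not reported here.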

Additional observations from a re-analysis of the deposited data

How the results depend on the processing

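Of the gene results, the calls of TNFRSF1A and the missed thresholds of TYK2 were the same in all 17 alternatives. IFNGR1 and JAK1 also missed the threshold in every alternative that fitted them. Their smallest adjusted p values were 0.179 and 0.309 by the edgeR test, both without untreated 3. The ranges of log2 fold change on leaving out 1 library were -0.005 to 0.83 for IFNGR1, 0.41 to 0.79 for IFNGR2, 0.59 to 1.12 for IFNAR1, 1.80 to 2.21 for IFNAR2, -0.41 to 0.36 for JAK1, 2.10 to 2.87 for JAK2 and 0.63 to 0.99 for TRADD. IFNGR1 changed sign without untreated 1 and JAK1 without untreated 3. With 1 surrogate variable the log2 fold changes of IFNGR2 (0.59), IFNAR1 (0.84) and TRADD (0.74) were past the threshold. IFNAR1 was past it with GC and length offsets (0.76), but not with these offsets and every gene tested (adjusted p = 0.1). TRADD was past it with every gene of at least 1 count tested (0.79), with DESeq2 (0.78) and with these offsets and every gene (0.63). The cause of these moves was not tested. Members called higher numbered 2 in the main fit, and 3 with the replicate block, with DESeq2 and with GC and length offsets. They numbered 4 with every gene tested, with and without the offsets, and 5 with the surrogate variable. They numbered 1 where genes with shared exons, IFNAR2 among them, were left out, and 1 to 3 without single libraries.

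Over all genes, 562 rose and 257 fell. These counts were 849 and 479 with every gene tested, 697 and 641 with GC and length offsets, 951 and 979 with both, and 987 and 675 with the surrogate variable. They ran from 358 to 733 and from 96 to 445 without single libraries, lowest without untreated 2 for genes that rose and without treated 3 for genes that fell. Scaling by library totals called 489 higher and 363 lower, or 57.4% higher against 68.6%, and moved the median log2 fold change from -0.03 to -0.13. The median was -0.10 with the offsets, where 52.1% of calls were higher. Pathway list genes called lower numbered 2, against 1 with library totals, 4 with the offsets and every gene, and 1 to 2 without single libraries. The IFNGR2 share difference ranged from -2.58 to 6.72 percentage points without single libraries. JAK2 could not be fitted in the alternatives that keep the count filter and all 6 libraries.

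Replicate numbers were not treated as pairs. Deviations of same-numbered libraries from their group means correlated at 0.651, -0.004 and 0.374, and untreated 2 and 3 correlated best with treated 1 (0.249) and treated 2 (0.413). With the replicate block, 907 genes rose and 605 fell, TRADD was past the threshold (log2 0.74, adjusted p = 0.0122), and IFNAR2 and TNFRSF1A stayed past it. With reads of 5, 4 and 8 for IFNAR2 and 1, 3 and 3 for JAK2 in untreated cells, depth limits what these genes can show.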
